A study of Mus musculus with 6 samples.

Results

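A group of 7 genes of the macrophages that recycle iron in the spleen were compared between the spleens of D3TA mice and those of WT mice: Spic, Hmox1, Slc40a1, Vcam1, Adgre1, Hpgd and Cd163. They were chosen by name, as the rows of the gene table whose GENCODE M21 symbol is one of these, and all 7 were found among 24906 listed genes. Polyadenylated RNA was sequenced from the spleens of 6 mice on the C57BL/6J background, aged 12 to 16 months, with 1 library per mouse and 3 mice per group. D3TA mice carry a CRISPR/Cas9-made change in Ccnd3, the gene for cyclin D3, that replaces threonine 283 with alanine (T283A), and the line was kept as heterozygotes. WT mice are age-matched wild types, and no other allele or treatment is named for either group. Per the series record, D3TA mice of this age have severe signs of myeloproliferative neoplasm, and the comparison asks how these genes differ in such spleens. The samples are unsorted spleen cells, so a lower value can come from fewer cells of a type or from less RNA per cell, and these cannot be told apart.

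Red pulp macrophages engulf aged red blood cells and return their iron to the blood. Heme freed from hemoglobin is cleaved by heme oxygenase 1 (Hmox1), and the iron leaves through ferroportin (Slc40a1), the iron exporter of vertebrate cells. Spi-C (Spic), an ETS-family transcription factor related to PU.1, is required for these macrophages. Heme raises Spic by triggering loss of the repressor BACH1, which also represses Hmox1 and the ferroportin gene. F4/80 (Adgre1), VCAM1 and the hemoglobin-haptoglobin receptor CD163 mark the cells at their surface.

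The libraries held between 14944622 and 19456838 reads assigned to genes, and each of the 7 genes was covered by 145 to 15882 reads per library. Values below are normalized read counts, meaning reads divided by 1 size factor per library, and a series of 3 is in the order of replicates 1, 2 and 3. A log2 difference is the D3TA mean less the WT mean of log2(normalized count + 1), tested with limma over 15564 genes with Benjamini-Hochberg adjustment, and all 7 genes were among those tested. Hemoglobin genes took 6.39% to 6.76% of reads in D3TA-1, D3TA-2 and WT-3 and 1.40% to 1.91% in the other 3 libraries, and Y-linked genes were expressed in D3TA-3 and WT-1. WT-2 listed 8449 genes at 0, where the other libraries listed 3193 to 5170. The edited gene Ccnd3 was at 7842, 3509 and 2424 in the D3TA libraries against 3086, 3064 and 2433 in the WT libraries, and since the edit changes a codon these counts do not check the genotype.

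No member of the group passed the test, and the genotypes overlapped for each of the 7 genes but Hpgd. In limma 0 of the 7 had an adjusted p under 0.05, where the share of all tested genes was 0%. Hmox1 and Hpgd had an unadjusted p under 0.05, both lower in D3TA, where the share of all genes lower at that level was 3.83%. Hmox1 was at the limit, and its p was above 0.05 under library size scaling (0.0603), a filter of 50 (0.0526), a pseudocount of 0.5 (0.0508), the replicate block (0.0547) and the Y-linked term (0.0589), all in limma. With single libraries left out, its limma p was 0.200 without WT-3, 0.107 without D3TA-1, 0.0806 without WT-1 and 0.0759 without D3TA-3. It was 0.0499 without D3TA-2 and 0.0123 without WT-2. Of the 7 genes 6 lay below 0, with a median difference of -0.49, whereas 45.5% of all tested genes lay below 0 and their median was 0.06. WT-3 was the highest library for 6 of the 7, all but Cd163, against 22.1% of all tested genes. D3TA-1 was the lowest library for the same 6, against 23.7% of all tested genes. The SD among WT libraries exceeded that among D3TA libraries for each of the 7, against 53.5% of all tested genes.

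**Figure D1:**
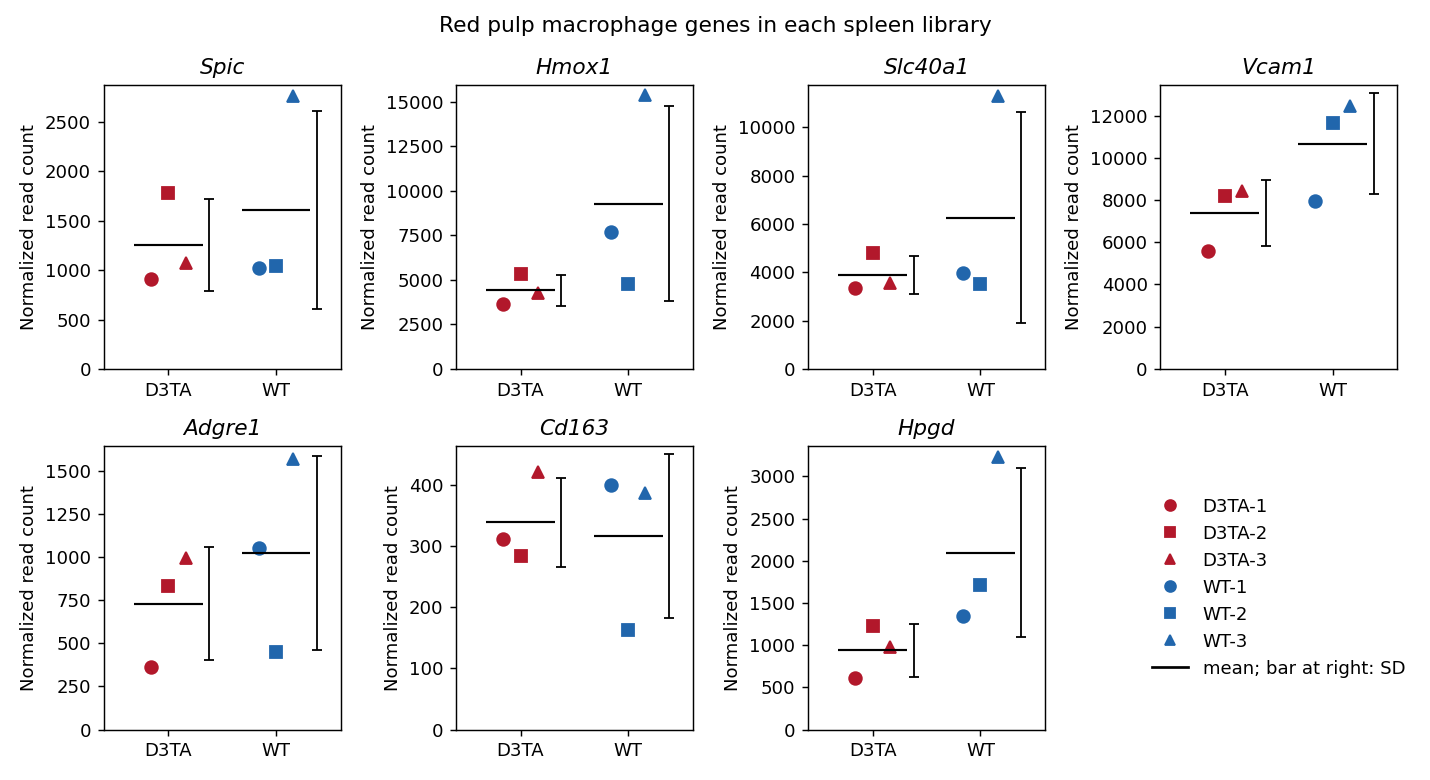
Normalized read counts (vertical axis, linear from 0) of the 7 genes in the 3 D3TA libraries (red) and the 3 WT libraries (blue), with 1 symbol shape per replicate number, the group mean as a line and the SD (n = 3) as a bar. WT-3 is the highest point for 6 genes, Cd163 being the exception, and Hpgd is the gene whose groups do not overlap.

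Per kilobase of annotated exon, Hmox1 was the most abundant of the 7, at 3904 ± 2511 normalized counts per kb (SD over 6 libraries). Vcam1 followed at 1019 ± 288, Hpgd at 902 ± 546, Slc40a1 at 565 ± 343, Spic at 373 ± 189, Adgre1 at 271 ± 136 and Cd163 at 60.0 ± 17.7. Hmox1 exceeded Vcam1, Slc40a1 exceeded Spic, and Adgre1 exceeded Cd163 in 6 of 6 libraries. The neighbours Vcam1 and Hpgd, and Hpgd and Slc40a1, kept that order in 5 of 6 libraries, and Spic and Adgre1 in 4. Whether these neighbours differ in level was not tested. Within WT the means of Hpgd (1247 ± 595 per kb) and Vcam1 (1204 ± 271) were in the reverse order. WT-3 was the library where Hpgd exceeded Vcam1 (1921 against 1403 per kb), so that reversal rests on WT-3. In D3TA the means of Hpgd and Vcam1 were 557 ± 186 and 834 ± 175.

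Spic (ENSMUSG00000004359, chromosome 10, 88674772 to 88685015, GRCm38) was at 907, 1779.7 and 1076 in the D3TA libraries against 1017, 1039.7 and 2767 in the WT libraries. The groups overlapped widely: WT-1 and WT-2 lay within the D3TA range, and WT-3 stood above every other library. The D3TA mean was 1254 ± 463 and the WT mean 1608 ± 1004 (SD, n = 3 each). The log2 difference was -0.25 ± 0.43 (SE), with a 95% interval of -1.20 to 0.70 and a limma adjusted p of 0.877. Without WT-3 the difference was 0.23 ± 0.34 (SE), with the opposite sign.

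RefSeq promoter sequences (GRCm38.p6) were matched for 3 of the 7 genes, Spic, Hpgd and Cd163. Those of Spic, the factor that defines these macrophages, and of Hpgd, the member whose groups did not overlap, are shown as the 250 bases before the RefSeq start site, 5′ to 3′ on the gene's own strand. Capitals mark matches on either strand to the Maf recognition half-site TGCTGA, part of the element that BACH1 and NRF2 bind with small Maf proteins, or to GAGGAA, the core of PU.1-type ETS sites. The marked letters of these motifs do not overlap. The Spic window lies inside the GENCODE span of the gene (88674772 to 88685015), so its RefSeq start is not the outermost GENCODE start.
Spic promoter, chr10:88683024-88683273, minus strand: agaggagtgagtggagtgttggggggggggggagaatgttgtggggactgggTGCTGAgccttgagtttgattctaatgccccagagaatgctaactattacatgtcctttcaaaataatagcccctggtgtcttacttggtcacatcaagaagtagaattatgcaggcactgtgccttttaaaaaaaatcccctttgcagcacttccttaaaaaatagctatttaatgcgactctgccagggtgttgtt
Hpgd promoter, chr8:56294302-56294551, plus strand: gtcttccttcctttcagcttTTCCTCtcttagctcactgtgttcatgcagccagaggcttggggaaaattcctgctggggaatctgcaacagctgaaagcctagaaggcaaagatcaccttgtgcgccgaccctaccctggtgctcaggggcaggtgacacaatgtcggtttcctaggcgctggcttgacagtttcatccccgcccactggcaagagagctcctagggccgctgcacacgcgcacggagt
Spic held 1 Maf half-site, at 198 to 193 bases before the start, and Hpgd held 1 ETS core on the opposite strand, at 230 to 225 bases before it. The Cd163 window held neither. TGCTGA was present in 16.1% and GAGGAA in 23.3% of 32851 mouse promoter windows of the same length, so these matches describe the letters only.

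Heme breakdown and iron export were represented by Hmox1 and Slc40a1. Hmox1 (ENSMUSG00000005413, chromosome 8, 75093621 to 75100589) was at 3622, 5347 and 4266 in the D3TA libraries against 7678, 4753 and 15349.5 in the WT libraries. WT-3 and WT-1 lay above every D3TA library, while WT-2 fell below D3TA-2, so the groups overlapped through WT-2. The D3TA mean was 4412 ± 872 and the WT mean 9260.2 ± 5473 (SD, n = 3 each). The log2 difference was -0.92 ± 0.41 (SE), a 1.89-fold lower level in D3TA, with a 95% interval of -1.84 to -0.0010, an unadjusted p of 0.0498 and a limma adjusted p of 0.504. It was -0.47 without WT-3 (interval -1.25 to 0.31), -0.79 without D3TA-1 and -1.32 without WT-2.

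Slc40a1 (ENSMUSG00000025993, chromosome 1, 45908068 to 45926523) was at 3348, 4807 and 3569.96 in the D3TA libraries against 3985, 3501 and 11293 in the WT libraries. Here 5 of the 6 libraries lay in a narrow band and WT-3 stood 3.16-fold above the median of the other 5. Hmox1 in WT-3 stood 3.23-fold above its own median of the other 5, and Spic 2.66-fold. The log2 difference of Slc40a1 was -0.49 ± 0.43 (SE), with an interval of -1.44 to 0.47 and a limma adjusted p of 0.741. Without WT-3 it was 0.05, with an interval of -0.64 to 0.73, and the WT mean went from 6259.7 to 3743 against 3908 in D3TA.

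Among the surface proteins, Vcam1, the adhesion molecule that binds alpha-4 integrins, was the steadiest over libraries. Vcam1 (ENSMUSG00000027962, chromosome 3, 116109949 to 116129688) was at 5610.3, 8171 and 8411 in the D3TA libraries against 7943, 11656 and 12440.4 in the WT libraries. WT-2 and WT-3 lay above all D3TA libraries and WT-1 lay inside their range. The log2 difference was -0.53 ± 0.32 (SE), with an interval of -1.23 to 0.18 and a limma adjusted p of 0.635, and it was -0.40 without WT-3 and -0.34 without D3TA-1. Endothelial and stromal cells also express Vcam1. Cxcl12, a stromal chemokine, was at 3145, 3475 and 5858 in the D3TA libraries against 6754, 8174 and 9377 in the WT libraries, with no overlap, and the endothelial adhesion molecule Pecam1 was at 926 to 1532 in D3TA and 1718 to 2280.1 in WT. The 11 endothelial and stromal markers did not move as 1 group: 7 lay above 0 and 4 below, and their summed level ran from 8286 to 17538 in D3TA and from 13659 to 15837 in WT. Their part in the Vcam1 values was not tested. An antisense transcript, Gm43109, shares 61 exon bases with Vcam1 and had at most 8.08 normalized counts in any library.

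Adgre1 (ENSMUSG00000004730, chromosome 17, 57358691 to 57483527), which encodes the macrophage antigen F4/80, was at 364, 832 and 991 in the D3TA libraries against 1053, 448 and 1568 in the WT libraries. D3TA-1 and WT-2 were the low libraries and WT-3 the high one, so the order of libraries cut across genotype. The log2 difference was -0.43 ± 0.50 (SE), with an interval of -1.54 to 0.68 and a limma adjusted p of 0.811. It was -0.04 without WT-3, 0.01 without D3TA-1 and -0.94 without WT-2. Eosinophils carry F4/80 too. Among their markers Epx, which encodes eosinophil peroxidase, was at 24.6, 113 and 35.4 in the D3TA libraries against 7.64, 0 and 187 in the WT libraries. Il5ra, the interleukin 5 receptor chain, was at 53.6, 61.6 and 30.3 in the D3TA libraries against 169, 166 and 169 in the WT libraries (difference -1.83, limma adjusted p 0.232). Epx was highest in WT-3, while Il5ra was nearly level across the WT libraries. The summed level of the 5 tested eosinophil markers ran from 827 to 2122 in D3TA and from 824 to 4393 in WT. Their part in the Adgre1 values was not tested.

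Cd163 (ENSMUSG00000008845, chromosome 6, 124304656 to 124330527), the scavenger receptor for hemoglobin bound to haptoglobin, was the lowest of the 7 and the member above 0. It was at 312, 284 and 421 in the D3TA libraries against 399, 162 and 387 in the WT libraries. WT-2 was low and the other 5 libraries lay close together, with D3TA-3 the highest. The log2 difference was 0.19 ± 0.41 (SE), with an interval of -0.71 to 1.09 and a limma adjusted p of 0.908, and it was -0.23 without WT-2.

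Hpgd, which encodes the enzyme that begins the breakdown of prostaglandin E2, showed the clearest separation of the 7. Hpgd (ENSMUSG00000031613, chromosome 8, 56294585 to 56321043) was at 608, 1232 and 974 in the D3TA libraries against 1342, 1719.01 and 3234 in the WT libraries. Each D3TA library lay below each WT library, though D3TA-2 and WT-1 were close. Hpgd was 1 of 7 members without overlap in the lower direction, against 6.84% of all tested genes. The D3TA mean was 938 ± 313 and the WT mean 2098 ± 1001 (SD, n = 3 each). The log2 difference was -1.12 ± 0.39 (SE), a 2.17-fold lower level in D3TA, with an interval of -1.98 to -0.25, an unadjusted p of 0.0166 and a limma adjusted p of 0.396. It was -0.75 without WT-3 (interval -1.56 to 0.05, unadjusted p 0.0630) and -0.83 without D3TA-1 (interval -1.69 to 0.02, unadjusted p 0.0545).

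**Figure D2:**
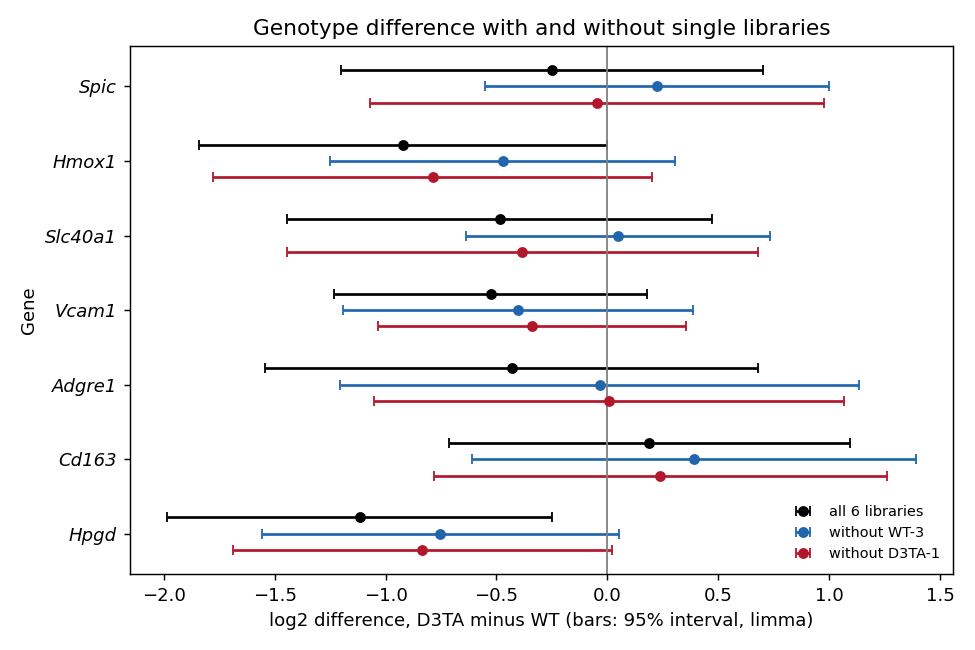
Log2 difference between D3TA and WT (horizontal axis) for the 7 genes (vertical axis) in limma, with 95% intervals, for all 6 libraries (black), without WT-3 (blue) and without D3TA-1 (red). With all libraries, the intervals of Hpgd and, narrowly, Hmox1 exclude 0, and without WT-3 or without D3TA-1 each of the 7 intervals includes 0.

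Without WT-3, 4 of the 7 genes lay below 0 with a median of -0.04, against 46.8% of all tested genes. Without D3TA-1, 5 of the 7 lay below 0 with a median of -0.34, against 45.1%.

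The libraries also divide by hemoglobin share, with a single library of 1 genotype on each side. Where that share was high, in D3TA-1 and D3TA-2 against WT-3, all 7 genes were lower in D3TA: the difference was -1.80 for Hmox1, -1.90 for Hpgd, -1.49 for Slc40a1, -1.51 for Adgre1, -1.12 for Spic, -0.88 for Vcam1 and -0.38 for Cd163. Where it was low, in D3TA-3 against WT-1 and WT-2, it was -0.50 for Hmox1, -0.64 for Hpgd, -0.19 for Vcam1 and -0.07 for Slc40a1, while Spic (0.07), Adgre1 (0.53) and Cd163 (0.72) were higher in D3TA. The first comparison has WT-3 as its only WT library, the highest for 6 of the 7, so its values repeat that library. Hmox1, Hpgd, Vcam1 and Slc40a1 lay below 0 in both, and neither comparison was tested. The limma model was also fitted with a yes-or-no term for a hemoglobin share above 5% of reads. In that limma fit the difference was -1.27 for Hpgd (adjusted p 0.373) and -1.15 for Hmox1 (adjusted p 0.415). It was -0.53 for Spic and -0.78 for Slc40a1, which had an unadjusted p of 0.0573 in that limma fit, and the fit called 0.0707% of all tested genes.

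The 10 other markers of red pulp macrophages repeated the pattern of the libraries in part. WT-3 was the highest library for 6 of the 10 and D3TA-1 the lowest for 7. The SD among WT libraries exceeded that among D3TA libraries for 6 of the 10, against 53.5% of all tested genes. All 10 lay below 0 with a median of -0.26, but 0 passed the limma test, 0 had an unadjusted p under 0.05, and without WT-3 the median was 0.12 and 6 of 10 lay above 0. Treml4, a receptor of the TREM family, was at 237, 350.5 and 609 in the D3TA libraries against 528, 275 and 1233 in the WT libraries. Mrc1, the mannose receptor, was at 1127, 1935 and 1149.6 in the D3TA libraries against 1386, 1639.6 and 2531 in the WT libraries. Fcna, which encodes the lectin ficolin A and is named here after its values were seen, was at 776 to 1744 in 5 libraries and at 7356 in WT-3. D3TA-3 was the highest library for C1qb and C1qc, complement genes of macrophages, and for the lysosomal gene Cd68, against 14.1% of all tested genes. In that library Spic, Hmox1, Slc40a1, Hpgd and, narrowly, Vcam1 (-0.05 in log2) lay below their own means. Adgre1 (0.35) and Cd163 (0.43) lay above theirs. The other markers divided too, with Itgad (-0.17), Mrc1 (-0.44) and Fcna (-0.24) below their means there and the rest above. C1qb, C1qc, Cd68 and Itgad were named after their values were seen. The summed level of the 10 markers was 16151, 26600.4 and 42194 in the D3TA libraries against 27067, 21079 and 56066 in the WT libraries.

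**Figure D3:**
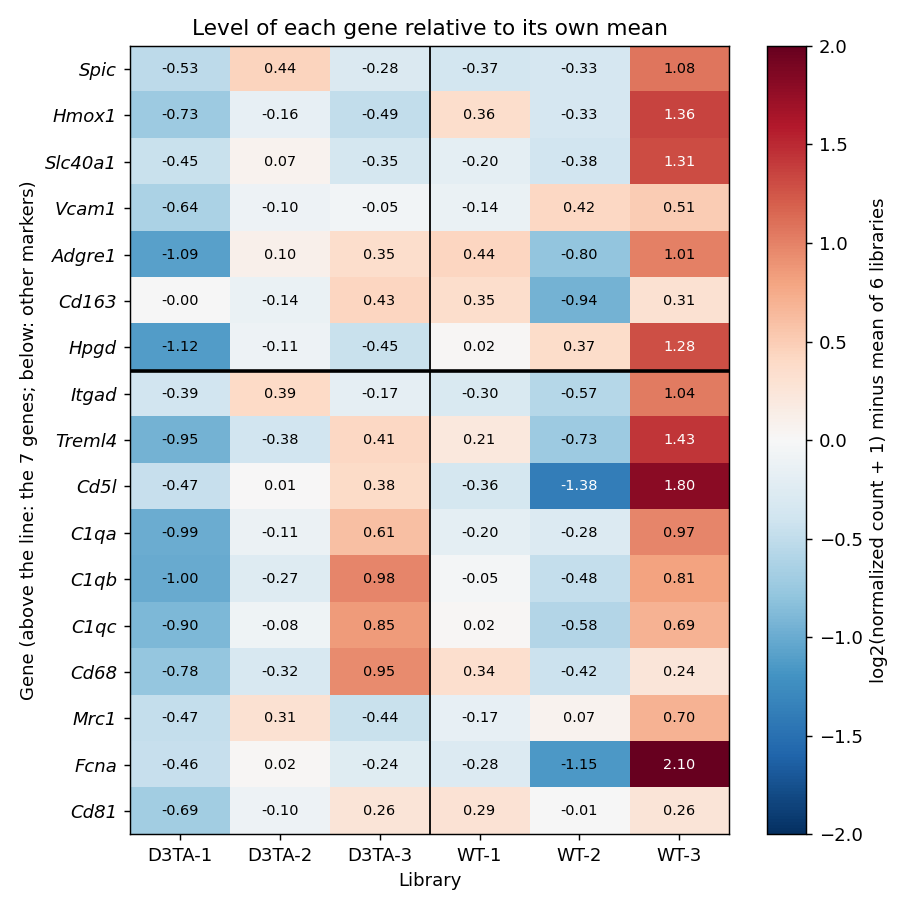
Level of the 7 genes (upper rows) and 10 other red pulp macrophage markers (lower rows) in each library (columns), as log2(normalized count + 1) minus the gene's mean over the 6 libraries, red above and blue below that mean. The WT-3 column is red in every row, and the D3TA-1 column is blue in every row but Cd163, where it is near 0.

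Within the 7, Spic and Slc40a1 had the most similar profiles, with a root mean square difference of 0.20 between their centred log2 values over the 6 libraries. Cd163 was farthest from the mean profile of the 7, at 0.53. Outside the 7, the genes nearest to that mean profile were Matk (0.084), the pseudogene Rpl10-ps5 (0.106) and Gm13493 (0.106), by the same measure over 6 libraries. Matk was at 196, 335 and 267 in the D3TA libraries against 354, 257 and 574 in the WT libraries. Reads of Rpl10-ps5 can belong to its parent gene, so its value is uncertain.

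The genes that work with the 7 were counted in 7 partner lists holding 79 genes, of which 76 were tested, and 0 passed the limma test. At an unadjusted p under 0.05, 7 lay higher and 4 lower, together 11 of 76, against 9.91% of all tested genes. All 3 D3TA libraries lay above all 3 WT libraries for 7 of the 76, against 8.18% of all tested genes. In DESeq2 on the recovered reads 4 of the partner genes passed, namely Hp, Itgam, Fcgr4 and Gsr, all higher, where 2.54% of all genes with an adjusted p passed. Capture and transport of heme and hemoglobin had 6 of 8 tested genes above 0, with a median of 0.34, which was 0.20 without D3TA-1 and 0.57 without WT-3. Haptoglobin (Hp), the plasma protein that hands hemoglobin to CD163 and is also made by neutrophil precursors, was at 8391, 4099 and 1436 in the D3TA libraries against 474, 746 and 661 in the WT libraries. The groups did not overlap, and the log2 difference of Hp was 2.57 ± 0.54 (SE), with a limma adjusted p of 0.166. Heme oxygenase 2 (Hmox2), the constitutive form of the enzyme, was at 371 to 777 in D3TA and 866 to 891 in WT, with a difference of -0.80 and an adjusted p of 0.456. Blvrb, a biliverdin reductase named after its values were seen, was high in D3TA-1 (7267) and WT-3 (6596) and at 2683 to 4103 elsewhere. Hpx, Flvcr2 and Hamp were too low to be tested.

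Of 13 tested genes of iron storage and transfer 10 lay above 0, with a median of 0.13 and differences from -0.21 to 0.998. Slc11a2, the iron transporter DMT1, lay highest, at 521 to 1335 in D3TA and 327 to 514 in WT without overlap (limma adjusted p 0.424). Fth1 and Ftl1, the ferritin chains that store iron, had differences of 0.13 and -0.21, with no group separation. Both were named after their values were seen. Ireb2, an iron-sensing RNA-binding protein, was at 928 to 1437 in D3TA and 852 to 1002 in WT.

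Of 14 tested genes listed for the engulfing of cells, receptors and ligands together, 9 lay above 0, with a median of 0.18. That median was 0.34 without D3TA-1 and 0.29 without WT-3. The ligands Gas6 and Mfge8, named after their values were seen, lay lowest of the 14, at -0.90 and -0.88. Itgam, the CD11b integrin chain of neutrophils and monocytes, was at 2233, 1236 and 381 in the D3TA libraries against 239, 249.6 and 129 in the WT libraries, without overlap (difference 2.36 ± 0.57 SE, limma adjusted p 0.232). Fcgr4, an activating receptor for immunoglobulin G, was also higher in each D3TA library, at 793 to 2001 against 294 to 603 (adjusted p 0.246). Axl and Mertk, receptors for apoptotic cells on macrophages, overlapped between groups, Axl at 1368 to 4765 against 2123 to 3241 and Mertk at 263 to 658 against 349 to 482. Both were named after their values were seen.

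The list for the BACH1 and NRF2 pathway, which controls Hmox1, pools repressors, activators and targets, so its counts give no single direction of the pathway. Of 13 tested genes 11 lay above 0, with a median of 0.48. Bach2 (-1.18) and Keap1 (-0.18), named after their values were seen, lay below 0. Of the 13 genes 2 had an unadjusted p under 0.05 in limma, both higher, against 6.08% of all tested genes. Without D3TA-1 the median was 0.23, and D3TA-1 was the highest library for 10, against 26.9% of all tested genes. Gsr, glutathione reductase, was at 6447, 4995 and 2243 in the D3TA libraries against 1673, 1708 and 1502 in the WT libraries (difference 1.36 ± 0.38 SE, limma adjusted p 0.290). Mafg, a small Maf partner of BACH1 and NRF2, was at 726 to 3044 in D3TA and 650.4 to 757 in WT. Gclm, a glutathione synthesis gene named after its values were seen, was at 6492, 2433 and 1225 in the D3TA libraries against 1253, 1792 and 1767 in the WT libraries, so D3TA-1 was high and the other 5 lay between 1225 and 2433. Bach1 itself, named after its values were seen, was at 514 to 689 in D3TA and 312 to 542 in WT. Its difference was 0.48, with a limma adjusted p of 0.655.

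Regulators of macrophage identity had 13 of 14 genes below 0 with a median of -0.23, but D3TA-1 was lowest for 10 of the 14 and without it the median was -0.0019. Spib, a relative of Spic expressed mainly in B cells and plasmacytoid dendritic cells, lay lowest at -1.27 (930 to 3351 in D3TA and 2920 to 6584 in WT, limma adjusted p 0.423). Spi1, which encodes PU.1, and Csf1r, the receptor for macrophage growth factor, both named after their values were seen, had differences of -0.22 and -0.10. Of the 4 integrin chains that pair to bind VCAM1, Itgb7 was lower in each D3TA library (1241 to 2099 against 2183 to 4176, adjusted p 0.419), and Itgb1 was at 4512 to 6531 against 3331 to 4926. Of 10 genes of prostaglandin synthesis and transport 8 lay above 0, with a median of 0.30. Among them Ptgs1, a cyclooxygenase upstream of the prostaglandins that Hpgd inactivates, was higher in each D3TA library, at 924 to 1140.3 against 434 to 819.6 (difference 0.94 ± 0.32 SE, limma adjusted p 0.391).

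**Figure D4:**
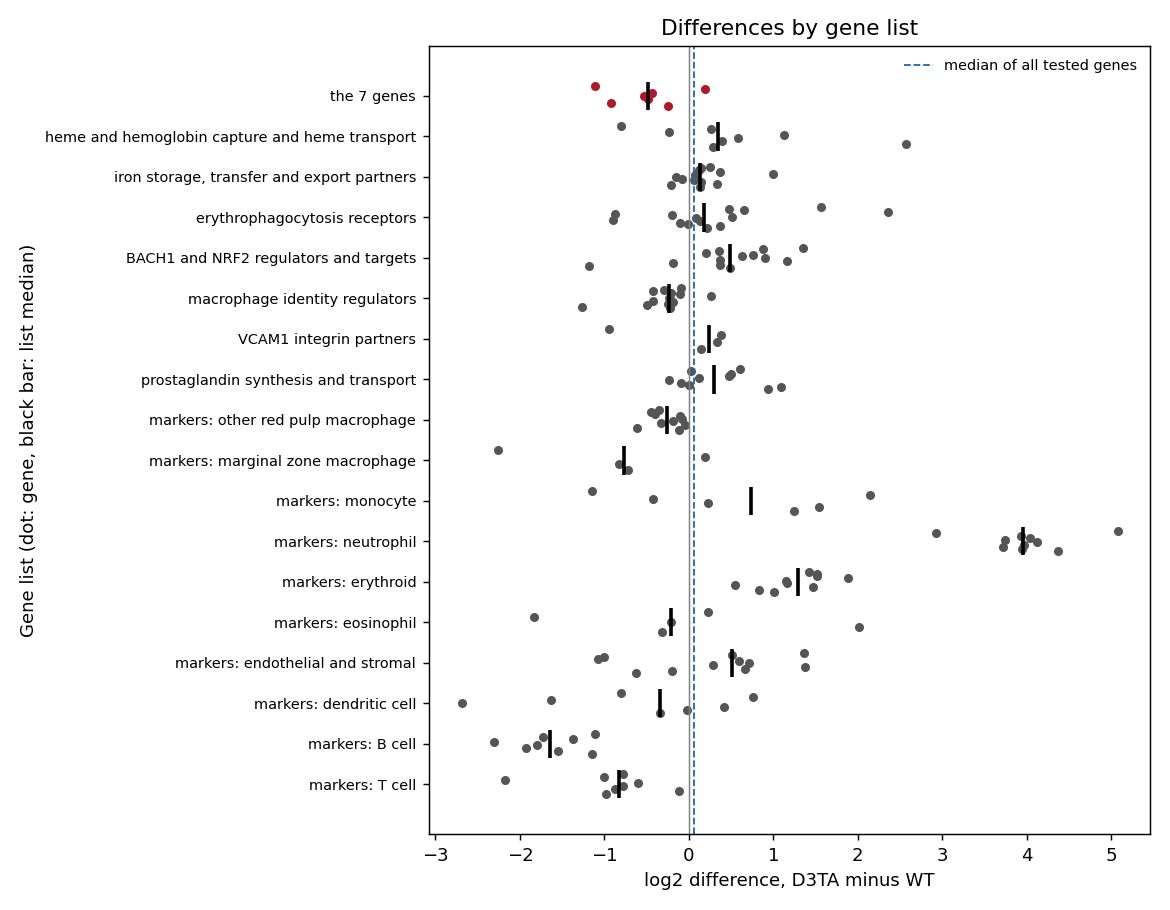
Log2 difference between D3TA and WT in limma (horizontal axis) for each tested gene (dots) of the 7 genes (red), the 7 partner lists and the 10 marker lists (grey), with each list's median as a black bar and the median of all tested genes as a dashed line. The 7 genes have a median of -0.49, and the neutrophil (3.95), erythroid (1.29, or 0.54 without D3TA-1) and B cell (-1.64) markers lie farther from 0. So do the T cell (-0.83), marginal zone macrophage (-0.77), monocyte (0.74) and endothelial and stromal (0.51) medians.

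Markers of other cell types were read in the same libraries. All 10 neutrophil markers lay above 0 with a median of 3.95, and their summed level was 80223 to 440251 in D3TA and 11939 to 28427 in WT. All 10 erythroid markers lay above 0 with a median of 1.29, which was 0.54 without D3TA-1, and D3TA-1, the library lowest for 6 of the 7 genes, was highest for each of the 10 (summed level 136031, against 17473 to 52486 in the other 5 libraries). All 8 B cell markers lay below 0 with a median of -1.64 (-1.02 without D3TA-1), at a summed level of 11018 to 34305 in D3TA and 60768 to 76335 in WT. Monocyte markers had 4 of 6 above 0, and Ly6c2 and Ccr2 were higher in each D3TA library. So was F13a1, named after its values were seen, which had the largest difference of the 6, at 2.15. The 2 monocyte markers below 0, also named after their values were seen, were Ace and Nr4a1 (-0.42). Ace was lower in each D3TA library, at 66.7 to 105 against 118 to 298 (difference -1.14, limma adjusted p 0.445). Among 4 tested marginal zone macrophage markers 3 lay below 0, Marco among them at 966 to 1647 in D3TA and 1631 to 2643 in WT. Of the T cell markers all 8 lay below 0 with a median of -0.83, and D3TA-1 was the lowest library for each of them. Without it the T cell median was -0.24, with 7 of 8 below 0. Dendritic cell markers had 5 of 7 below 0 with a median of -0.34, and without D3TA-1 the median was 0.06. What these shares of other cells contribute to the values of the 7 genes was not tested.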

How the data were processed

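The deposited table lists 24906 genes in 6 libraries. Its name calls the values raw counts, but they are a signal: on the evidence of the values, the authors had divided read counts by a size factor per library. In each library every value was a whole multiple of a fixed step, and dividing by it gave whole reads within 0.001 for 100% of 149436 values. Per the submitters' processing notes, CASAVA, FastQC, Trim Galore, HISAT2 and DESeq2 were used with the build mm10. The counting program and annotation are not given in the sources used here. Per the labels' protocols, no strand-marking step is described.

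Symbols, coordinates and merged exon lengths came from GENCODE M21 on GRCm38 (mm10), where 24895 identifiers were found, and promoter sequences from RefSeq on GRCm38.p6. The 15564 genes that reached a normalized count of 10 in 3 or more libraries were fitted as log2(normalized count + 1) in limma 3.58.1 (trend and robust), with genotype as the factor, Benjamini-Hochberg at 0.05, 2-sided. A library at 0 is limited by 3 reads, a normalized count of 2.59 to 3.36, which covers counting error only. P-values measure the spread between these 6 libraries.

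The 7 genes, 7 partner lists and 10 marker lists were chosen with earlier results of these data known. Named genes are the 7, the 2 tested genes with the smallest p of each list, Ccnd3 and the 3 genes with the nearest profile. Other list genes given with values are said to be named after their values were seen. Where a symbol had 2 identifiers, that with the higher mean was used. The 22 alternatives included other scalings, filters and pseudocounts, a replicate block, and each library left out. They also included D3TA-1 and WT-2 left out together, and limma-voom, edgeR 4.0.16 and DESeq2 1.42.0 on recovered reads. The rest were yes-or-no terms for a hemoglobin share above 5% of reads and for expression of Y-linked genes. The limma script was tested on simulated data. R 4.3.3, Python 3.11.15 and matplotlib 3.10.9 were used.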

Additional observations from a re-analysis of the deposited data

How the results depend on the processing

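Hmox1, Hpgd and Vcam1 were lower in D3TA under all 22 alternatives, and none of the 7 genes passed an adjusted p of 0.05 under any of them, the smallest being 0.145 for Hpgd in DESeq2. Leaving out 1 library at a time moved the log2 difference between -1.39 and -0.75 for Hpgd, -1.32 and -0.47 for Hmox1, -0.73 and -0.34 for Vcam1, -0.80 and 0.05 for Slc40a1, -0.53 and 0.23 for Spic, -0.94 and 0.01 for Adgre1, and -0.23 and 0.41 for Cd163. The sign changed without WT-3 for Spic and Slc40a1 (0.047), without D3TA-1 for Adgre1 (0.0068) and without WT-2 for Cd163. With D3TA-1 and WT-2 both left out, Cd163 was at -0.18 and 3 of the 7 genes were lower without overlap, against 14.2% of all tested genes in that design, and the cause was not tested. Leaving out single libraries gave 1 to 3 such genes: 2 without D3TA-2 (9.73% of all tested genes), 2 without WT-1 (13.4%), 3 without WT-2 (10.6%) and 1 without D3TA-1, D3TA-3 or WT-3 (9.34%, 14.3% and 13.6%). These shares exceed the 6.84% of the full design since fewer libraries overlap less often by construction. The hemoglobin term moved Spic to -0.53 and Slc40a1 to -0.78.

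The replicate number as a block left each of the 7 uncalled, with adjusted p of 0.340 for Hpgd and 0.542 for Hmox1. Same-numbered libraries had deviation correlations of -0.0572, -0.00456 and -0.132, and no library correlated best with its own number. With 3 libraries per group these values cannot decide whether the numbers pair the mice, and the labels do not say. Over all genes, limma called 0, edgeR 0, limma-voom 0 and DESeq2 472, with 44 in limma without the low-value filter, 11 with the hemoglobin term, 15 with the Y-linked term and 306 without D3TA-3. Partner genes called higher were 0 in limma, 4 in DESeq2 and 0 to 4 with single libraries left out (4 without D3TA-3). Marker genes called higher were 0, but 2 without the filter, 6 with the hemoglobin term, 7 with the Y-linked term, 15 in DESeq2 and 0 to 16 with single libraries left out (16 without D3TA-3). Those called lower were 0, but 4 without the filter, 6 in DESeq2 and 0 to 5 with single libraries left out (5 without D3TA-3). Epx, at 2.01 in limma, was at -0.19 in edgeR and -0.17 in DESeq2.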
